A study of Mus musculus with 12 samples.

Results

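The genes of the Notch2 pathway and of the marginal zone B cell programme, Notch2, Notch1, Rbpj, Maml1, Dtx1, Hes1, Cd1d1, Cd9 and S1pr3, were followed in sorted splenic B cells of autoimmune-prone mice. They were taken by gene symbol from the deposited expression tables, and all 9 were among the 43613 named items of those tables and among the 14608 items expressed highly enough to be tested (at least 1 FPKM in at least 3 of 12 libraries; FPKM is the fragment count scaled to transcript length and to the fragments mapped). Bulk RNA sequencing was run on 12 libraries in 4 groups of 3, from female mice aged 6 months on the C57BL/6 background. All of the mice carried Sle1b, a lupus susceptibility interval, and the controls (genotype B6.Sle1b, here Sle1b) differed from the others (B6.Sle1b.IFNaR1-/-, here Ifnar1KO) by label in the loss of the type I interferon receptor chain Ifnar1. From each genotype, live B220+ GL7+ CD95+ cells were sorted as germinal centre (GC) B cells and live B220+ GL7- CD95- cells as non-GC B cells. The design asks how interferon receptor signalling bears on the selection of B cells in germinal centres. Whether the 3 libraries of each group stem from different animals is not given in the labels, so the tests measure the spread between libraries, which may be technical.

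Notch2 is a surface receptor that binds ligands of the Delta and Jagged families on neighbouring cells. Ligand binding leads to cleavage of the receptor, and the freed intracellular domain joins the DNA-binding protein Rbpj and a Mastermind-like coactivator such as Maml1 to switch on target genes. In the mouse spleen, Notch2 signalling is known to be required for marginal zone B cells, a population that responds early to blood-borne antigen and carries high surface CD1d and CD21. The non-GC gate used here does not separate marginal zone from follicular B cells. In these bulk samples, fewer cells of a type and less RNA per cell cannot be told apart.

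Each deposited table compares 1 library with 1 other of the same batch and was normalized on its own, so levels are comparable within a batch and only loosely between batches. The 3 batches match the 3 replicate numbers. Batch 3 stood apart: 5324 to 9987 items reached 1 FPKM in its 4 libraries, against 10096 to 11775 in the other 8. The summed level of 4 B cell markers (Cd79a, Cd79b, Ms4a1, Ptprc) was 6.91 to 10.4 FPKM in the GC libraries and 85.2 to 112.5 FPKM in the non-GC libraries of batch 3, and 776 to 1160 and 1273 to 1500 FPKM in those of batches 1 and 2. The 5 GC markers (Fas, Bcl6, S1pr2, Mki67, Gcsam) summed to 201 to 528 FPKM in the GC and 49.9 to 88.4 FPKM in the non-GC libraries of batches 1 and 2. In batch 3 they summed to 14.1 to 20.2 FPKM in all 4 libraries, with overlapping ranges of the sorted populations. Results are therefore given with and without batch 3. The Ifnar1 transcript went against the genotype label in batches 1 and 2, at 14.6 and 36.1 FPKM in Sle1b and 51.2 and 69.1 FPKM in Ifnar1KO non-GC cells, and at 8.12 and 9.89 FPKM against 14.1 and 15.4 FPKM in GC cells. In batch 3 it was lower in the libraries labelled Ifnar1KO (3.45 against 2.58 FPKM in non-GC cells, 6.80 FPKM against a listed 0 in GC cells). A signal over the whole locus can include reads on parts of the gene that targeting leaves in place. Why the level was higher in the libraries labelled Ifnar1KO in batches 1 and 2 was not tested, nor was the correctness of the labels. Every direction between genotypes rests on the labels.

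Notch2 had the highest mean FPKM of the 9 genes in non-GC cells of both genotypes and was the lower in GC cells of each of the 6 matched pairs, a pair being the GC and non-GC library that share genotype and batch. In Sle1b, it measured 25.3, 48.3 and 4.41 FPKM in non-GC replicates 1, 2 and 3, and 5.75, 11.8 and 1.35 FPKM in the matching GC libraries. In Ifnar1KO, it measured 28.3, 57.9 and 1.99 FPKM in non-GC cells and 5.75, 15.3 and 0.754 FPKM in GC cells. Within each batch the GC libraries lay below the non-GC libraries, and the share of all genes for which this holds was not counted. The level in non-GC cells was 4.40, 4.11 and 3.27 times that in GC cells in Sle1b, and 4.93, 3.79 and 2.63 times in Ifnar1KO. Estimated from the value of 1 read in each library, these levels rest on 1756 to 2734 reads in the non-GC and 202 to 585 reads in the GC libraries of batches 1 and 2, and on 48 to 225 reads in batch 3. The gene lies on chromosome 3 from 98013527 to 98150361 on the plus strand (GRCm38).

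The difference in Notch2, GC minus non-GC averaged over both genotypes, was -1.64 on the log2(FPKM + 1) scale (SE 0.37, 95% interval -2.45 to -0.84), while the median of all genes tested lay at -0.25. With limma and Benjamini-Hochberg adjustment over all genes the adjusted p was 0.0935 (unadjusted 0.000749), which missed the 0.05 threshold, and Notch2 ranked 117 of 14608 by p. When batch 3 was left out and the expression filter applied anew to the remaining 8 libraries, the difference was -1.97 (SE 0.31, interval -2.68 to -1.26) and passed (limma adjusted p = 0.0175). The same estimate tested among the full 14608 genes had an adjusted p of 0.0744, so the call depends on which genes are tested alongside. Without 1 library at a time the difference stayed between -1.53 and -1.87, with adjusted p of 0.0722 to 0.283.

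**Figure D1:**
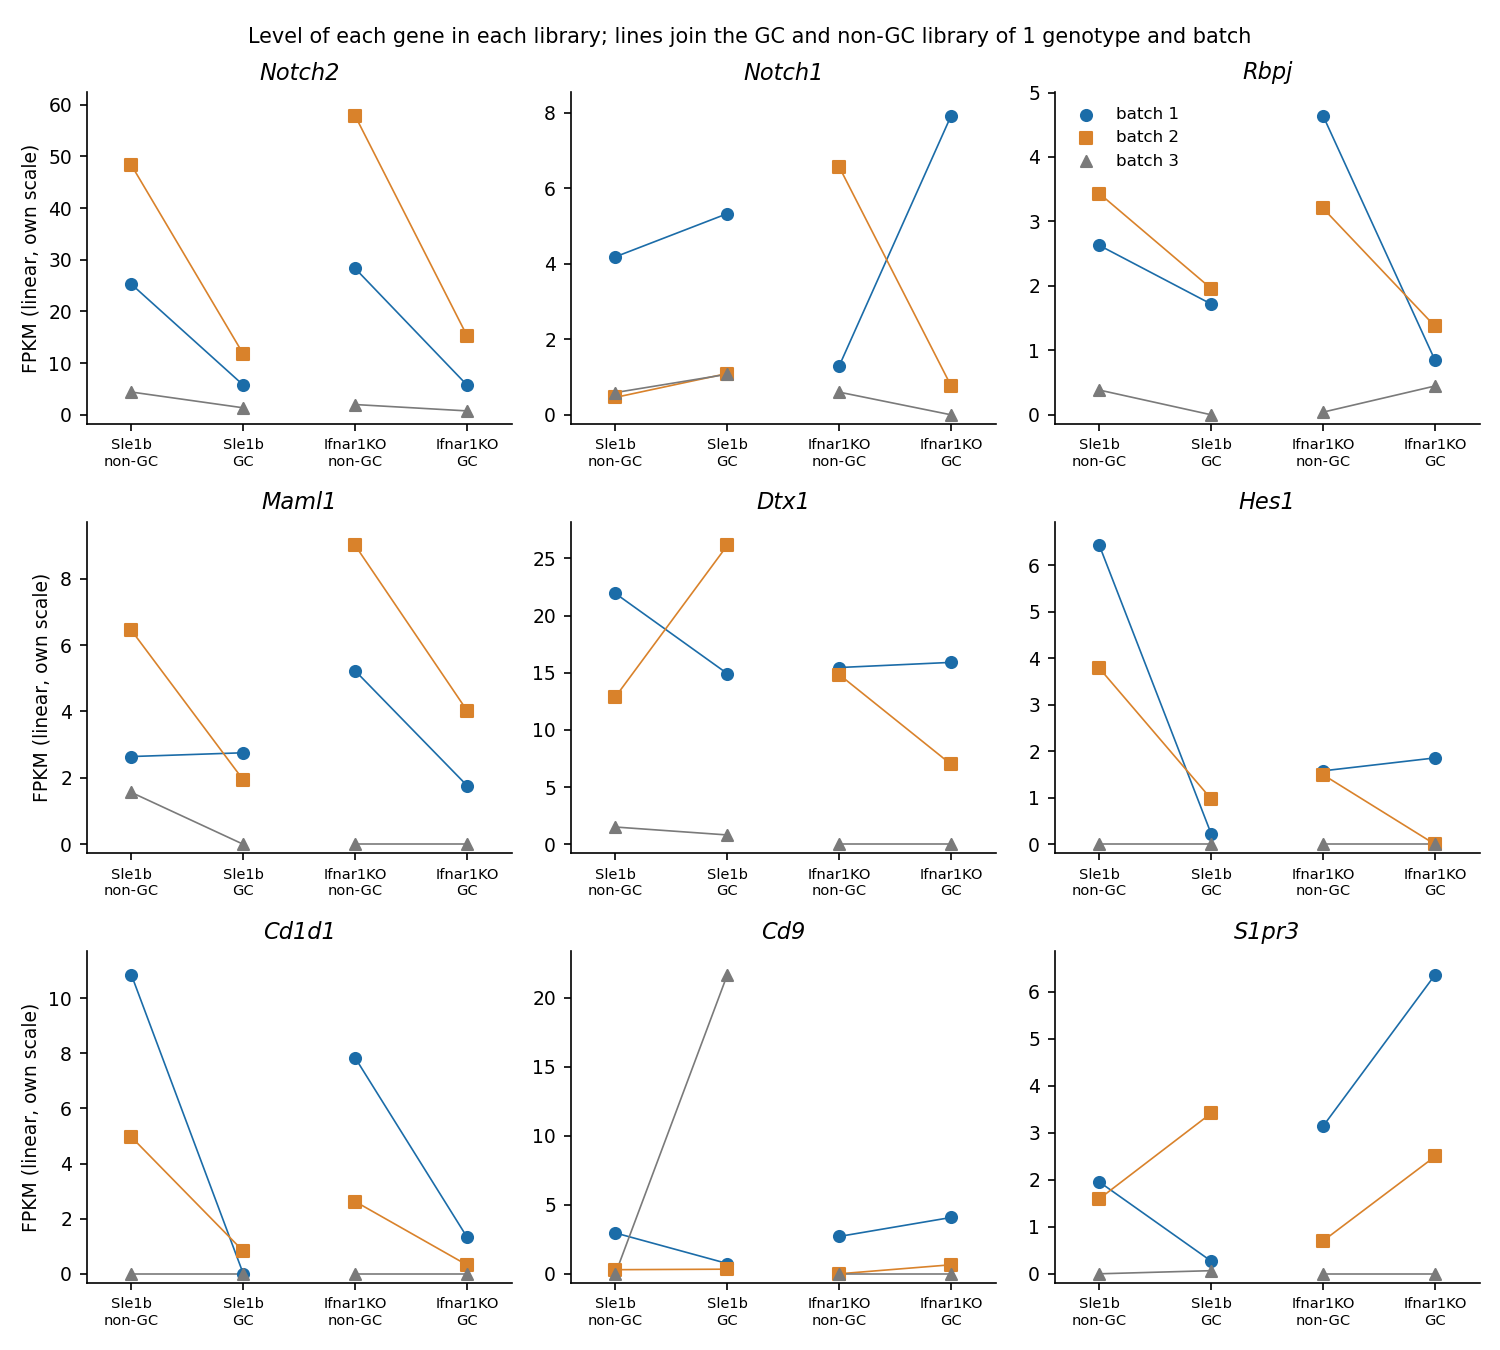
Level in FPKM (linear axis, a scale of its own for each gene) of the 9 genes in each of the 12 libraries, with a line joining the GC and non-GC library of 1 genotype and batch. Every Notch2 line slopes down from non-GC to GC, Cd1d1 lines slope down in batches 1 and 2 and lie at 0 in batch 3, and the high Cd9 point is the Sle1b GC library of batch 3.

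Over the 9 genes, none passed the threshold in the GC comparison of all 3 batches (0 of 9, limma), where 0.0274% of all genes did (4 of 14608: Mki67 and Tpx2 higher in GC cells, Iglc4 and Cd55 lower; the count was 1 to 10 with 1 library left out, and it was 10 when either GC library of batch 3 was the one left out). At an unadjusted p under 0.05, Notch2 and Cd1d1 were lower in GC cells, 2 of 9 beside 13% of all genes. Notch2 alone was lower in all 6 pairs (1 of 9, beside 5.82% of all genes). Notch2, Rbpj and Cd1d1 were lower in all 4 pairs of batches 1 and 2 (3 of 9, beside 18.1%). In the fit to batches 1 and 2, Notch2 was the 1 of 9 genes that passed, where 2.77% of all genes passed as lower in GC cells and 4.58% in either direction. The median difference of the 9 genes was -0.57 in all batches and -0.86 in batches 1 and 2, and that of all genes was -0.25 and -0.34.

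By genotype, the Notch2 difference between GC and non-GC cells was -1.70 in Sle1b (SE 0.53, limma adjusted p = 0.440) and -1.58 in Ifnar1KO (SE 0.53, adjusted p = 0.332). None of the 9 genes passed in either genotype, beside 0% of all genes in Sle1b and 0.00685% in Ifnar1KO (1 of 14608). At an unadjusted p under 0.05, Notch2 and Cd1d1 were lower in Sle1b and Notch2 in Ifnar1KO, where 1386 and 1798 of all genes lay under that value. In batches 1 and 2 the Notch2 differences were -1.96 in Sle1b and -1.99 in Ifnar1KO, with adjusted p of 0.130 and 0.101.

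Promoter sequence is shown for Notch2 and for Rbpj and Maml1, the nuclear partners whose levels ran most like those of Notch2 across the libraries among the members with a promoter entry. RefSeq (GRCm38.p6) holds the 250 bases before the annotated start for 7 of the 9 genes; Hes1 and Cd1d1 had no entry. Bases that GENCODE annotates as exon were taken off the windows below, and capitals mark the letters TGGGAA, the core of the sequence that Rbpj is known to bind, or TTCCCA, the same on the other strand.
Notch2 (chr3:98013288-98013526, plus strand): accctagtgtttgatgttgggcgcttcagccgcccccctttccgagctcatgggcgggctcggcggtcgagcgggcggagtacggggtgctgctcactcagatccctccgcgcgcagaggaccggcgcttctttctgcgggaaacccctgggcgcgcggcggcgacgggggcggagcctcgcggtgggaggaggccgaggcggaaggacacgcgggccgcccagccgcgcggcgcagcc
Rbpj (chr5:53590096-53590213, plus strand): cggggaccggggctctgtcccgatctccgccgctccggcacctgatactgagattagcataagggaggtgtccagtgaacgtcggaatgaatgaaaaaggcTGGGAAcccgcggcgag
Maml1 (chr11:50292337-50292586, minus strand): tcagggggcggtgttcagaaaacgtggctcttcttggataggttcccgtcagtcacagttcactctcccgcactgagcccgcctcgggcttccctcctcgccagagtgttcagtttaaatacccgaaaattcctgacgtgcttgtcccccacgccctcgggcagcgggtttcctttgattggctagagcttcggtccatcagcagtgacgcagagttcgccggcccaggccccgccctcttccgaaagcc
The windows of Notch2 and Maml1 hold neither form. A further Rbpj window (chr5:53590236-53590485), which holds TTCCCA, is not shown. The Rbpj windows lie inside the gene, which GENCODE starts at 53466152. Over the full windows, the letters occurred in 2 of the 7 genes, Rbpj and Cd9, and in 21.6% of all 32851 RefSeq windows of the same length. The first count is by gene and the share is by window. A match is a description of the sequence only.

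Notch1, the other Notch receptor expressed here, showed no common direction. It measured 4.18, 0.461 and 0.589 FPKM in Sle1b non-GC cells and 5.33, 1.09 and 1.07 FPKM in Sle1b GC cells. Libraries labelled Ifnar1KO had 1.29, 6.57 and 0.600 FPKM in non-GC cells and 7.92, 0.770 and a listed 0 FPKM in GC cells. GC cells were higher in all 3 Sle1b pairs and in 1 of 3 Ifnar1KO pairs, and the ranges of the 4 groups overlapped. The averaged log2 difference was 0.06 (95% interval -1.07 to 1.19, limma adjusted p = 0.963), and it turned to -0.17 with a pseudocount of 0.1. On the FPKM scale, which is per length, Notch2 exceeded Notch1 in 7 of the 8 libraries of batches 1 and 2, the exception being Ifnar1KO GC replicate 1.

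Rbpj, the DNA-binding partner of cleaved Notch, and Maml1, a Mastermind coactivator, were low throughout. Rbpj measured 2.63, 3.43 and 0.384 FPKM in Sle1b non-GC cells and 1.72, 1.96 and a listed 0 FPKM in GC cells, and in Ifnar1KO 4.64, 3.20 and 0.0413 FPKM in non-GC and 0.847, 1.37 and 0.447 FPKM in GC cells. It was lower in GC cells in all 4 pairs of batches 1 and 2 and in 1 of the 2 pairs of batch 3. Its log2 difference was -0.57 (95% interval -1.40 to 0.26, limma adjusted p = 0.460), and -0.86 in batches 1 and 2 (adjusted p = 0.280). Maml1 measured 2.64, 6.44 and 1.56 FPKM in Sle1b non-GC cells and 2.76, 1.94 and a listed 0 FPKM in GC cells, and in Ifnar1KO 5.22, 9.0 and a listed 0 FPKM in non-GC and 1.77, 4.03 and a listed 0 FPKM in GC cells. GC cells were lower in 4 pairs, higher in Sle1b batch 1 and level at 0 in Ifnar1KO batch 3. The Maml1 difference was -0.80 (95% interval -1.70 to 0.10, limma adjusted p = 0.331). Both intervals include 0.

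Dtx1, a ubiquitin ligase that regulates Notch and is itself a Notch target, had the highest mean FPKM of the 9 genes in GC cells of both genotypes and did not separate the cell types. It measured 21.9, 12.9 and 1.51 FPKM in Sle1b non-GC cells and 14.9, 26.1 and 0.818 FPKM in Sle1b GC cells. The Ifnar1KO libraries had 15.5, 14.9 and a listed 0 FPKM in non-GC cells and 15.9, 7.00 and a listed 0 FPKM in GC cells. GC cells were lower in 3 pairs and higher in 2, with a log2 difference of -0.16 (95% interval -1.0 to 0.68, limma adjusted p = 0.861).

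Hes1, a transcriptional repressor switched on by Notch, was detected in batches 1 and 2 only and was highest in Sle1b non-GC cells. There it measured 6.43 and 3.79 FPKM in batches 1 and 2, against 0.222 and 0.974 FPKM in Sle1b GC cells. In Ifnar1KO it measured 1.58 and 1.5 FPKM in non-GC cells and 1.86 and a listed 0 FPKM in GC cells. All 4 libraries of batch 3 were listed at 0. The levels rest on few reads, an estimated 55 in Sle1b non-GC replicate 1 and 27 or fewer elsewhere. The log2 difference was -0.84 (95% interval -1.76 to 0.07, limma adjusted p = 0.319) and -1.26 in batches 1 and 2 (interval -2.42 to -0.11, adjusted p = 0.169). The 2 genotypes differed in direction in batch 1, and the genotype by cell type interaction was 0.90 (95% interval -0.93 to 2.74, limma adjusted p = 0.992).

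Cd1d1 encodes CD1d, which presents lipids to natural killer T cells and is carried at high level by marginal zone B cells. It was lower in GC cells in each pair of batches 1 and 2 and listed at 0 in all 4 libraries of batch 3. It measured 10.8 and 4.96 FPKM in Sle1b non-GC cells against a listed 0 and 0.820 FPKM in GC cells, and 7.83 and 2.62 FPKM in Ifnar1KO non-GC cells against 1.33 and 0.320 FPKM in GC cells. Within these batches the cell types did not overlap, and here too the share of all genes was not counted. The 3 ratios that could be formed were 5.89 to 8.20 of non-GC over GC. The reads behind them were an estimated 20 to 128 in non-GC and 0 to 11 in GC libraries. The log2 difference was -1.44 (SE 0.49, 95% interval -2.50 to -0.39, limma adjusted p = 0.174), and -2.16 in batches 1 and 2 (SE 0.53, adjusted p = 0.0535), so it did not pass in either fit. The paralogue Cd1d2, which is close in sequence, was listed at no more than 1.63 FPKM in any library, and reads shared between the paralogues could have been assigned to either.

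Cd9 and S1pr3 showed no such pattern. Cd9, a tetraspanin carried by marginal zone B cells and also by platelets and antibody-secreting cells, measured 2.96, 0.297 and a listed 0 FPKM in Sle1b non-GC cells and 0.744, 0.335 and 21.6 FPKM in Sle1b GC cells. The Ifnar1KO libraries had 2.70 FPKM and listed 0 in both other replicates of non-GC cells, and 4.08, 0.653 and a listed 0 FPKM in GC cells. The value of 21.6 FPKM, an estimated 79 reads, came from Sle1b GC replicate 3, while the other 3 libraries of batch 3 were at 0. In the authors' deposited tables this library gave the 2 called differences on the 9 genes (q = 0.0369 against Sle1b non-GC replicate 3 and q = 0.0253 against Ifnar1KO GC replicate 3), among 153 rows of which the authors tested 84. Of all named loci tested, 13.4% and 9.83% were called in those 2 of the authors' deposited tables, and 4.17% over all 17. In that library 7 platelet and erythroid markers summed to 0.492 FPKM, with Pf4, Ppbp and Gp9 at 0, against 0 to 61.1 FPKM in the other 11. There, 6 T cell markers (Cd3e, Cd3d, Cd3g, Cd4, Cd8a, Lck) summed to 73.7 FPKM, against 6.24 to 27.3 FPKM in the other 11 libraries. Of these markers, Cd3g and Cd8a were at 0 in Sle1b GC replicate 3. The part of other cells in the Cd9 value was not tested. The fitted log2 difference of Cd9 was 0.76 (95% interval -0.74 to 2.25, limma adjusted p = 0.594) and 0.01 without batch 3 (interval -1.03 to 1.05).

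S1pr3, a receptor for sphingosine 1-phosphate that takes part in holding B cells in the marginal zone, measured 1.95, 1.6 and a listed 0 FPKM in Sle1b non-GC cells and 0.268, 3.42 and 0.0666 FPKM in Sle1b GC cells. The Ifnar1KO values were 3.14, 0.700 and a listed 0 FPKM in non-GC cells and 6.36, 2.50 and a listed 0 FPKM in GC cells. GC cells were higher in 4 pairs and lower in 1, and the groups overlapped. The log2 difference was 0.25 (95% interval -0.73 to 1.23, limma adjusted p = 0.806).

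**Figure D2:**
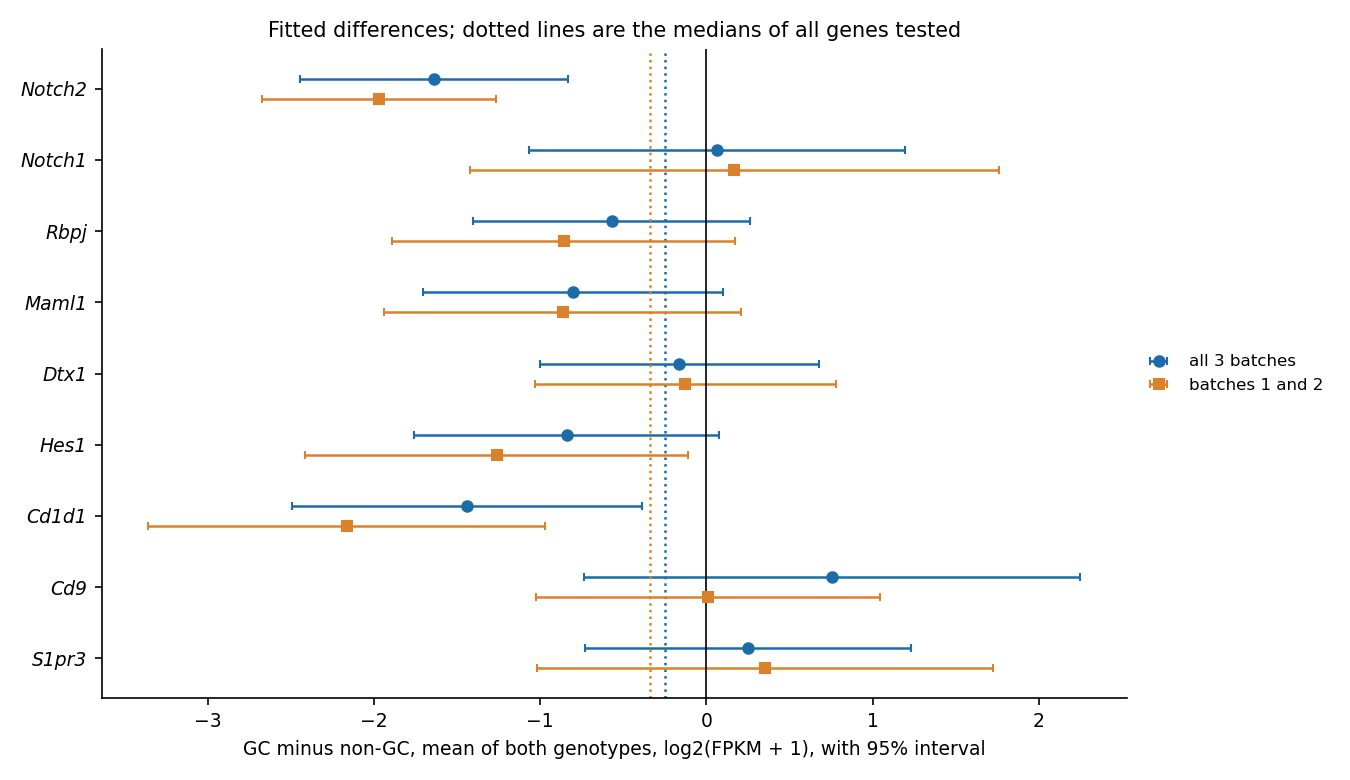
Fitted difference of GC minus non-GC cells, mean of both genotypes, on the log2(FPKM + 1) axis for the 9 genes, with 95% intervals, for all 3 batches (circles) and batches 1 and 2 (squares); dotted lines mark the medians of all genes tested, -0.25 and -0.34. Only the intervals of Notch2 and Cd1d1 lie below 0 and below the dotted line in both fits.

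Markers of other cells that can express Notch2 were read beside it. In batches 1 and 2, 6 myeloid markers (Lyz2, Csf1r, Itgam, Cst3, Cd68, Adgre1) summed to 18.4 to 30.6 FPKM in the non-GC libraries and to 18.3 to 39.3 FPKM in the GC libraries, and 5 dendritic cell markers (Itgax, Zbtb46, Flt3, Siglech, Xcr1) to 3.83 to 9.64 and 2.04 to 8.94 FPKM. Within batch 1 the myeloid sum was higher in the GC libraries (39.3 and 32.8 FPKM) than in the non-GC libraries (30.6 and 27.8 FPKM), the direction opposite to that of Notch2, and within batch 2 it overlapped. The dendritic cell sum overlapped within both batches. The sum of the 4 B cell markers moved with Notch2: it was lower in GC cells in all 6 pairs, at 776 to 1160 FPKM against 1273 to 1500 FPKM in batches 1 and 2, and its part in the Notch2 result was not tested. Marginal zone macrophage genes (Marco, Siglec1, Cd209b, Cd163) summed to at most 0.365 FPKM there, with Marco at 0 in all 12 libraries. In batches 1 and 2 the sum of 6 stromal and endothelial markers moved with Notch2. It was 49.7 to 92.9 FPKM among non-GC libraries and 9.29 to 33.6 FPKM among GC libraries. Nearly all of it was Pecam1 (49.5 to 92.2 and 8.80 to 32.6 FPKM), an adhesion molecule that B cells also carry. Pdgfrb was at 0 in all 12 libraries. Which cells the Pecam1 reads came from was not tested. In batch 3 the myeloid sum was 2.14 to 14.9 FPKM in the non-GC libraries and 0.0681 to 2.72 FPKM in the GC libraries. The marginal zone macrophage sum of batch 3 was 0.769 to 1.63 FPKM in the non-GC and 2.16 to 5.49 FPKM in the GC libraries. In Sle1b GC replicate 3, Marco, Siglec1 and Cd163 were at 0, so that sum was Cd209b alone. The part of other cells in the Notch2 result was not tested beyond these values.

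The other genes of the pathway were taken from lists of known function, and none passed the limma threshold in the GC comparison of all 3 batches. Of 17 genes for further receptors and for Notch processing and glycosylation, 13 were tested, with 10 below and 3 above 0 and a median of -0.29, beside 64.3% of all genes below 0 and their median of -0.25. In batches 1 and 2 the fringe glycosyltransferase Lfng, named after its values were seen, differed by -1.92 (SE 0.45, limma adjusted p = 0.0505). Of 5 ligand genes only Dll1, the ligand known to support marginal zone B cells from the surface of stromal cells, reached the filter (log2 difference -0.90, limma adjusted p = 0.262). Of 16 nuclear partners of Rbpj, 15 lay below 0 with a median of -0.39, or -0.41 in batches 1 and 2, where that of all genes was -0.34. Maml2, Ep300 and Crebbp were lower in GC cells in all 6 pairs (3 of 16, beside 5.82% of all genes). Maml2, another Mastermind coactivator, measured 8.39, 10.3 and 2.50 FPKM in Sle1b non-GC cells and 3.91, 4.43 and 0.0386 FPKM in GC cells, and in Ifnar1KO 7.89, 7.84 and 5.10 FPKM in non-GC and 0.0297, 4.6 and a listed 0 FPKM in GC cells (log2 difference -1.69, SE 0.45, limma adjusted p = 0.117). Ep300 and Crebbp, the acetyltransferases p300 and CBP, differed by -0.78 and -0.57 (adjusted p = 0.302 and 0.416).

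Among genes for turnover and inhibition of Notch, 9 of 11 were tested, 5 below and 4 above 0, with a median of -0.03. The ubiquitin ligase gene Neurl3 was lower in GC cells in all 6 pairs (log2 difference -1.49, SE 0.38, limma adjusted p = 0.113), at 41.6, 76.3 and 8.87 FPKM in Sle1b non-GC and 27.6, 48.0 and 2.35 FPKM in Sle1b GC cells. Dtx2, a relative of Dtx1, was the only listed gene higher in GC cells in all 6 pairs, as were 1.02% of all genes. It measured 3.84, 2.74 and a listed 0 FPKM in Sle1b non-GC and 9.52, 3.06 and 1.49 FPKM in GC cells, and in Ifnar1KO 4.85, 4.91 and 0.932 FPKM in non-GC and 9.99, 13.6 and 32.2 FPKM in GC cells. Its log2 difference was 1.48 (SE 0.52, limma adjusted p = 0.188) and 0.87 in batches 1 and 2 (adjusted p = 0.284), and the Ifnar1KO pair of batch 3 differed by 4.10. Of the 11 other Notch target genes, 5 were tested and all 5 lay below 0, with a median equal to that of all genes to within rounding (-0.25). In batches 1 and 2, with 3 of them tested, 2 lay above 0. In this fit with the filter redone, Cr2 was the 1 that passed, as lower in GC cells, beside 2.77% of all genes. The same gene is counted again among the marginal zone genes below.

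Cr2 encodes complement receptor CD21, which marginal zone B cells carry at high and follicular B cells at intermediate level. It measured 156, 256 and 29.9 FPKM in Sle1b non-GC cells and 41.4, 92.6 and a listed 0 FPKM in GC cells, and in Ifnar1KO 194, 240 and 7.14 FPKM in non-GC and 37.6, 143 and 0.0773 FPKM in GC cells. It was lower in GC cells in 6 of 6 pairs, with a log2 difference of -2.38 (SE 0.51, limma adjusted p = 0.0832), and fell by 1.61 in batches 1 and 2 (SE 0.32, adjusted p = 0.0315). Of 15 other marginal zone B cell genes, Cr2 included, 13 were tested, with 9 below and 4 above 0 and a median of -0.50. In batches 1 and 2, 3 of the 13 passed, all lower in GC cells, beside 2.77% of all genes: Cr2, the Fc receptor-like gene Fcrl1 (-1.35, SE 0.28, limma adjusted p = 0.0361) and S1pr1, the receptor that draws B cells towards blood and the marginal zone (-1.49, SE 0.32, adjusted p = 0.0390; named after its values were seen). These 3 calls come from the fit with the filter redone, where 562 of all genes passed. Over the same 14608 genes without batch 3, only 1 gene in all passed, so the calls depend on which genes are tested alongside. Fcrl5, lower in all 6 pairs, differed by -1.45 (limma adjusted p = 0.188), but by -0.66 without batch 3.

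Of 5 listed genes of follicular B cells, all were tested and none passed in all 3 batches, while 2 passed as lower in GC cells in batches 1 and 2, beside 2.77% of all genes. All 5 lay below 0, with a median of -1.31, and 4 of them were lower in all 6 pairs, beside 5.82% of all genes. Fcer2a, the low-affinity IgE receptor CD23 that marks follicular cells and is low on marginal zone B cells, measured 130, 208 and 21.4 FPKM in Sle1b non-GC and 32.8, 45.4 and 4.03 FPKM in Sle1b GC cells. The Ifnar1KO values were 145, 182 and 17.8 FPKM in non-GC and 20.8, 54.0 and a listed 0 FPKM in GC cells. Its log2 difference was -2.50 (SE 0.42, limma adjusted p = 0.0577), and in batches 1 and 2 it fell by 2.15 (SE 0.28, adjusted p = 0.0116). Cxcr5, the chemokine receptor for follicles, also passed there, at -1.54 (SE 0.31, limma adjusted p = 0.0337). The calls of Fcer2a and Cxcr5 likewise come from the fit with the filter redone. Over the same 14608 genes without batch 3, only 1 gene in all passed. Ighd, the constant region of IgD, shares a summed locus with Ighm in the deposited tables and differed by -1.08 (SE 0.53, limma adjusted p = 0.307). No test here set the marginal zone and the follicular genes against each other.

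**Figure D3:**
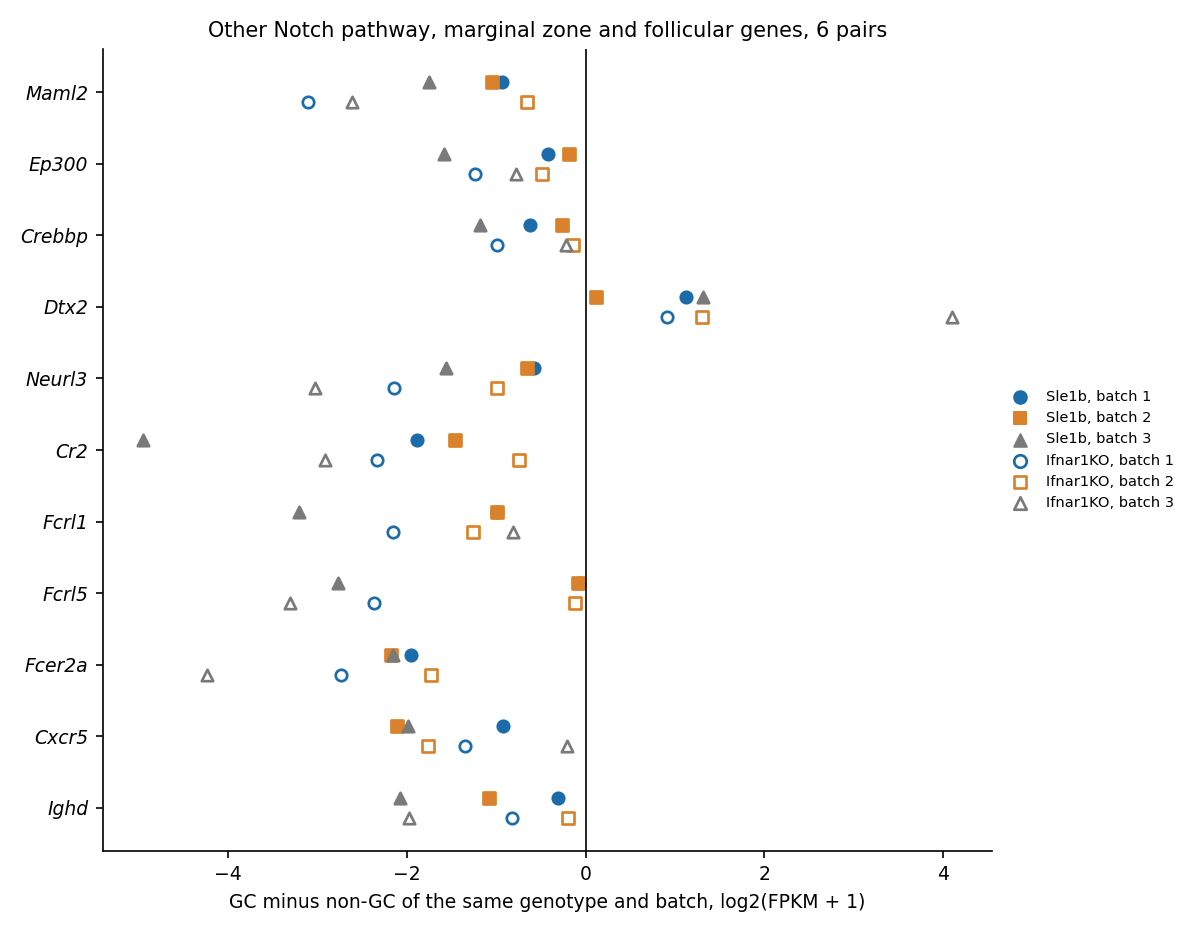
Difference between the GC and non-GC library in each of the 6 matched pairs, on the log2(FPKM + 1) axis, for the listed genes with the same direction in all 6 pairs (up to 3 for each list); filled symbols are Sle1b, open symbols Ifnar1KO, and shapes give the batch. Dtx2 lies above 0 and the other 10 genes below. The point farthest from 0 is Cr2 in the Sle1b pair of batch 3. For Maml2 the farthest point is the Ifnar1KO pair of batch 1, and for Cxcr5 the Sle1b pair of batch 2.

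The genes whose levels ran most like those of Notch2 over the 12 libraries, with the batch mean removed, were B3gnt5 (Pearson r = 0.974), Sgk3 (0.971), Ubl7 (0.970), Mynn (0.969) and RP23-97M20.1 (0.962). As an example, the glycosyltransferase gene B3gnt5 measured 56.7, 69.7 and 5.36 FPKM in Sle1b non-GC and 14.7, 16.8 and 1.11 FPKM in Sle1b GC cells. Among the members, r with Notch2 was 0.821 for Cd1d1, 0.813 for Maml1, 0.770 for Rbpj and 0.609 for Hes1. It was 0.220 for Dtx1, -0.03 for Notch1, -0.10 for Cd9 and -0.23 for S1pr3. No cutoff was set, and the share of all genes that reach such values was not counted. These values describe 12 libraries that share batches and a cell type contrast.

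Between the genotypes, none of the 9 genes passed the limma threshold, in non-GC cells (0 of 9, beside 0% of all genes), in GC cells (0 of 9, beside 0%) or in the genotype by cell type interaction (0 of 9, beside 0%). None had an unadjusted p under 0.05 in any of the 3, where 243, 959 and 547 of the 14608 genes did. Notch2 in the libraries labelled Ifnar1KO was 1.12, 1.2 and 0.451 times the Sle1b level in non-GC cells of batches 1, 2 and 3, and 1.0, 1.3 and 0.559 times in GC cells. Its log2 difference was -0.15 in non-GC cells (95% interval -1.29 to 0.99) and -0.02 in GC cells (-1.17 to 1.12). It turned to 0.21 and 0.18 without batch 3. With levels joined over all comparisons of a batch, only batch 3 had a ratio below 1 in both cell types. In the authors' own comparisons of batch 1, Notch2 was 39.4 FPKM in Sle1b and 39.2 FPKM in Ifnar1KO non-GC cells. In GC cells these were 4.21 and 3.92 FPKM, so both direct ratios also lay below 1. The interaction for Notch2 was 0.12 (95% interval -1.49 to 1.74, limma adjusted p = 0.998), so a difference of up to 1.74 on the log2 scale between the genotypes in the GC effect lay within the interval.

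Among the other members, the largest difference between genotypes was that of Hes1 in non-GC cells (-0.82, 95% interval -2.12 to 0.48) and those of Cd9 and Dtx1 in GC cells (Dtx1 -0.85, interval -2.03 to 0.34). In GC cells Cd9 differed by -0.88 (interval -3.00 to 1.23) with batch 3 and by 0.93 (interval -0.54 to 2.39) without it. Dtx1 in GC cells of batch 2 was 26.1 FPKM in Sle1b and 7.00 FPKM in Ifnar1KO, but in batch 1 it was 14.9 and 15.9 FPKM. In all 3 batches together, each of the 9 intervals between genotypes spans over 2 log2 units in both cell types, and each includes 0.

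**Figure D4:**
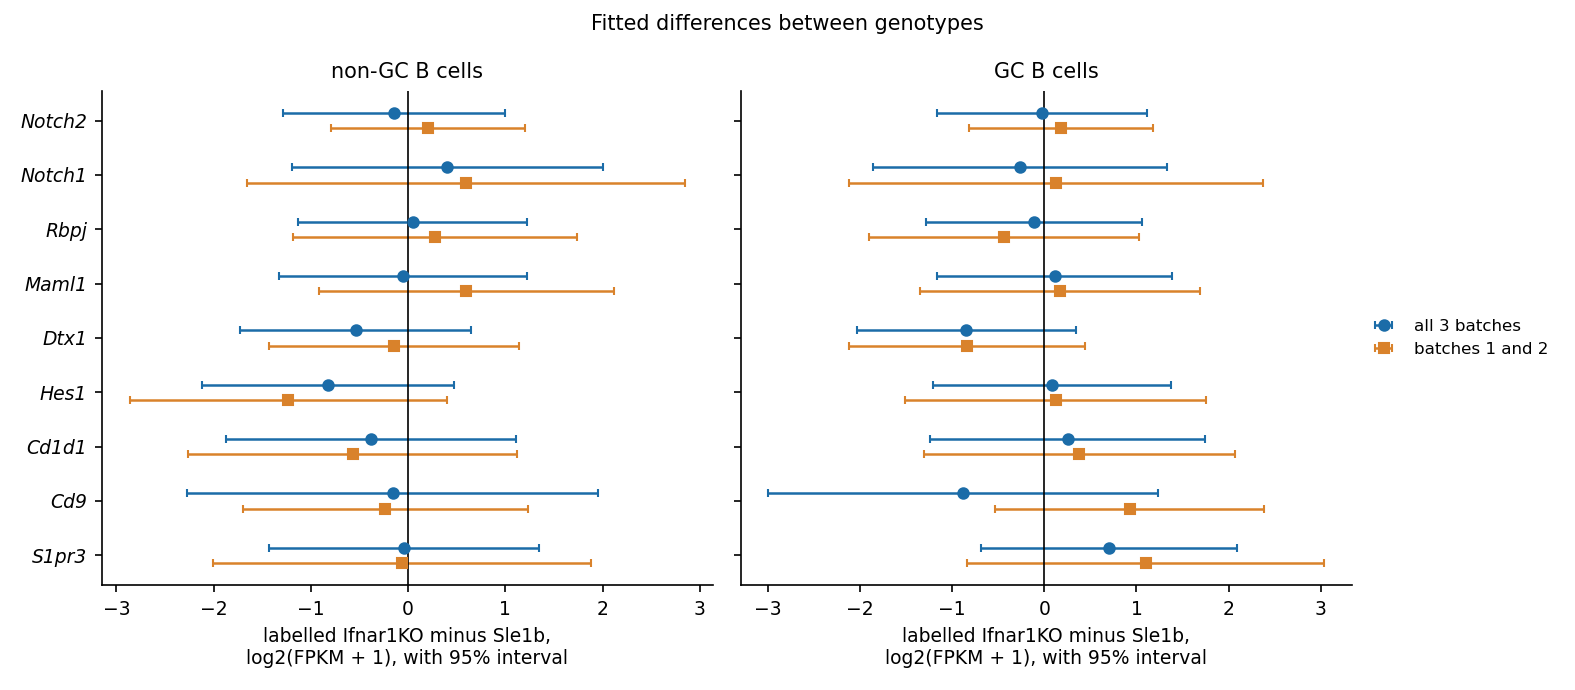
Fitted difference of the libraries labelled Ifnar1KO minus Sle1b on the log2(FPKM + 1) axis, in non-GC (left) and GC (right) cells, with 95% intervals, for all 3 batches (circles) and batches 1 and 2 (squares). All intervals cross 0.

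Several loci limit what a single value means. No source used here says that the library kit kept strand, so reads of overlapping genes cannot be told apart. Gm26542, antisense to Maml1, was listed at up to 3.07 FPKM in batches 1 and 2 and at 13.1 FPKM in Sle1b non-GC replicate 3, where Maml1 was at 1.56 FPKM. Gm28809, which overlaps Cd9, was listed at 0 in Sle1b GC replicate 3, the library with the high Cd9 value, and at up to 8.58 FPKM elsewhere.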

How the data were processed

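The submitters' processing notes name Cuffdiff and Cufflinks 2.2.1 with TopHat2 2.0.9, Bowtie2 2.1.0, CASAVA and the build GRCm38. The 17 deposited tables used here give, for 506504 loci and 1 library against 1 other of its batch, the FPKM as normalized by the authors and the authors' p-value and q-value. They hold no direct comparison of the Sle1b pair of batch 1. The ratio of that pair was therefore taken through the other 5 comparisons of the batch, joined as described next. In batch 1, a ratio within a single comparison differed from the joined ratio by up to 0.174 on the log2 scale. Loci of 1 symbol were summed (43622 items; 9 failed items left out). A library's FPKM differs between tables by 1 factor, and these factors were solved by least squares within each batch; a value of 0 stayed 0 and is called listed at 0.

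Tests used limma 3.58.1 in R 4.3.3 on log2(FPKM + 1), two-sided, with a variance trend, a block for batch (6 residual degrees of freedom), over 14608 items with at least 1 FPKM in 3 libraries, Benjamini-Hochberg adjusted with a threshold of 0.05. Fold changes on this scale understate those of low genes. The block rests on the tables, which compare libraries only within a batch. Depth was read from unnamed loci of 800 to 2500 bp, where all low values up to 5.5 reads were whole multiples of 1 read within 0.1 read; 1 read on 1 kb was worth 0.119 to 0.406 FPKM. Estimated reads use the longest coding transcript in GENCODE and cover counting error only. The script was tested on simulated data.

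The members and lists were chosen with earlier results of these data known. A few listed genes are not reported here and were left out of the counts and sums of their lists. All members are named, and of each list the up to 3 genes with the largest difference among those with 1 direction in all 6 pairs, plus any past the threshold in all 3 batches. Alternatives changed the pseudocount, filter, block, joining of tables, batch 3 and each library.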

Additional observations from a re-analysis of the deposited data

How the results depend on the processing

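The number of all genes past the threshold in the GC comparison averaged over genotypes was 4. It was 1 with a pseudocount of 0.1, 18 with a filter at 5 FPKM, 1 with every gene above 0 in any library, 58 with the mean of each library's tables, and 1 without batch 3 over the same genes or 562 with the filter redone. Without the replicate block it was 0, and none of the 9 members passed with or without the block. The Notch2 difference stayed at -1.64 without the block, but its limma adjusted p went from 0.0935 to 0.999. In Sle1b the count was 0 and became 2 with the 5 FPKM filter and 7 without batch 3 (filter redone). In Ifnar1KO it was 1 and became 2, 0 without the replicate block, 0 or 38 without batch 3 and 3 with the mean of tables. Between the genotypes in GC cells it was 0 and became 1 without batch 3 (filter redone). Leaving out 1 library gave 1 to 10 in the averaged comparison, 0 to 1 in Sle1b, 0 to 2 in Ifnar1KO, 0 to 1 between genotypes in GC cells and 0 to 1 for the interaction. Notch2 and Cd1d1 lay below 0 in GC cells under every alternative run (19 and 18), and Notch2 passed in 1 of them, at -1.97 in batches 1 and 2 with the filter redone. The averaged Notch1 difference turned to -0.17 with the 0.1 pseudocount and -0.058 with the mean of tables. Without batch 3 and with either filter, Dtx1 and Cd9 in Sle1b turned to 0.22 and -0.57. Between genotypes, Notch2 and Maml1 in non-GC cells turned to 0.21 and 0.60, and Notch2, Notch1 and Cd9 in GC cells to 0.18, 0.13 and 0.93. Notch2 in GC cells was 0.049 with the mean of tables, and with the 0.1 pseudocount Rbpj was -0.36 in non-GC and 0.34 in GC cells and Hes1 -0.27 in GC cells. With 1 library left out, differences that changed sign ranged in the averaged comparison as follows, Notch1 -0.38 to 0.53, Dtx1 -0.34 to 0.007, Cd9 -0.095 to 1.35 and S1pr3 -0.03 to 0.63. In Sle1b the ranges were Dtx1 -0.36 to 0.33, Cd9 -0.58 to 2.30 and S1pr3 -0.68 to 0.64. In Ifnar1KO they were Notch1 -1.15 to 0.67, Hes1 -0.64 to 0.12 and Cd9 -0.052 to 1.1. Between genotypes in non-GC cells they were Notch2 -0.38 to 0.31, Notch1 -0.54 to 1.28, Rbpj -0.29 to 0.39, Maml1 -0.41 to 0.42, Cd1d1 -0.99 to 0.068, Cd9 -0.71 to 0.29 and S1pr3 -0.37 to 0.37. Between genotypes in GC cells they were Notch2 -0.23 to 0.33, Notch1 -0.87 to 0.065, Rbpj -0.52 to 0.18, Maml1 -0.23 to 0.38, Hes1 -0.43 to 0.59, Cd1d1 -0.51 to 0.82, Cd9 -2.06 to 0.82 and S1pr3 -0.058 to 1.26. None of these reversed values passed the threshold, and the causes were not tested.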
